A study of Mus musculus with 6 samples.

Results

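The genes described are a module of chemokines, cytokine receptors and NF-kappaB response genes in GC1-Spg cells, an immortalised line made from mouse spermatogonia, which are dividing germ cells. The members were chosen by name, with earlier results of these data known. They are 38 gene symbols, read through every probe set paired with 1 of them and with no other gene. Of the 38, 36 had such a probe set, out of 18193 genes with one on the array, and 34 were bright enough to be tested. Il1rl1 and Nfkb1 had no probe set of their own in the pairing used here, and Cxcl2 and Traf1 were too dim to test.

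RNA was measured in 6 cultures, 3 transfected with siRNAs against mrhl and 3 with a scrambled siRNA. Mrhl is a non-coding RNA of the mouse, and the comparison asks how gene expression differs once it is silenced. Both groups were the same cell line in the same serum-containing medium, both received 100 nM siRNA, and both were harvested 44 h after transfection. What transfection itself does to these genes cannot be read here. The siRNAs differed in sequence between the groups, so effects of that sequence and of silencing mrhl cannot be told apart. No cells without siRNA were analysed here. Labelled RNA was made from 6 ug of total RNA per culture and each culture was hybridised to its own 1-colour Affymetrix array. The submitters' design text reports the silencing by quantitative PCR in each of 3 independent experiments, and the RNA of mrhl was not read on the array here.

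NF-kappaB is a family of transcription factors made of pairs of subunits, among them Rela, Relb and the products of Nfkb1 and Nfkb2. Inhibitors of the IkB family hold the pairs in the cytoplasm until receptors for IL-1, TNF or microbial products lead to their breakdown. The freed factors then switch on chemokines, cytokines and, as a brake, their own inhibitors Nfkbia and Tnfaip3. In the testis these signals are best known from Sertoli cells, macrophages and inflammation.

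The deposited values are log2 expression values, so a difference of 1 between groups is a doubling. A probe set is a group of short probes for a single transcript, and its brightness also depends on its probes, so the level of a gene is compared between arrays only within a probe set, and brightness says nothing of which gene is expressed more. Between arrays the medians lay within 0.11 of each other. Of the 12 germ cell markers with a probe set, 8 were over the brightness limit of 3.62 used for testing, Zbtb16, Gfra1, Sall4, Kit, Id4, Uchl1, Etv5 and Stra8, among them genes of undifferentiated spermatogonia. The other 4, Ddx4, Dazl, Tex101 and Dmrt1, were under it, and the general germ cell markers Ddx4 and Dazl lay between 1.37 and 3.58 and between 2.92 and 3.73 over the 6 arrays. Of the leukocyte markers, 8 of the 11 with a probe set were over that limit, while Ptprc, Itgam and Aif1 were under it. Also over it were 10 of 10 Sertoli cell markers and 4 of 5 Leydig cell markers with a probe set. The same held for 7 of 11 fibroblast and peritubular cell markers and 5 of 8 endothelial ones. Of all 18193 genes with a probe set on the array, 14885 had one over the limit. A marker over it is thus not shown to be expressed, and the limit tells no cell type apart. The linear signal of all 11 leukocyte markers with a probe set was summed within an array, which weights each probe set by its brightness. It lay between 740 and 907 after mrhl siRNA, against 721 to 852 after scrambled siRNA, and Cd68 alone made up 57% of it on average. Summed likewise over the 6 arrays, germ cell markers gave 465 to 605, Leydig cell markers 96 to 146 and endothelial ones 156 to 181. Sertoli cell markers gave 5812 to 7807, and fibroblast and peritubular ones 20090 to 26661. These sums come from different probe sets and do not rank cell types. Kit averaged 3.43 after mrhl siRNA, under the limit, and 3.82 after scrambled siRNA. In RNA from whole cultures, fewer cells making a transcript and less transcript per cell cannot be told apart.

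Many genes of this kind carry a site for NF-kappaB shortly before their start. A common form of it, GGG, any 3 bases and TTCC, was searched on both strands in the 250 bases before the annotated starts of RefSeq genes (build GRCm38.p6). Of the members, 30 had such a promoter sequence, and 11 of these held the motif, which is 36.7%, against 5.31% of the 27025 genes with a promoter sequence. The 11 were Ccl9, Ccl20, Cxcl1, Cxcl2, Il6, Il1r1, Tlr2, Nfkb2, Tnfaip3, Nfkbia and Nfkbie. They include chemokines, a cytokine, receptors, a subunit and inhibitors of NF-kappaB. A match describes letters and not binding.

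The last 120 bases before the start are shown for 6 members with a match and for the 2 members whose differences between the groups had the smallest p-values, Cxcl15 and Il6ra, which had no match. Capitals mark the matches. The windows are Nfkbia chr12:55492648-55492767 (minus strand), Cxcl1 chr5:90891125-90891244 (plus), Il6 chr5:30012994-30013113 (plus), Ccl20 chr1:83116646-83116765 (plus), Ccl9 chr11:83578637-83578756 (minus), Nfkbie chr17:45555580-45555699 (plus), Cxcl15 chr5:90794414-90794533 (plus) and Il6ra chr3:89913197-89913316 (minus). All are written 5′ to 3′ in the direction of the gene.
Nfkbia: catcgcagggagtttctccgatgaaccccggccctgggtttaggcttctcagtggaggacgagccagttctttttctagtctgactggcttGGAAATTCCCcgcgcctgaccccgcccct
Cxcl1: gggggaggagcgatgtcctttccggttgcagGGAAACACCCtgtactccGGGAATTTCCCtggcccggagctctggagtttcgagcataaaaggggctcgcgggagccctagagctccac
Il6: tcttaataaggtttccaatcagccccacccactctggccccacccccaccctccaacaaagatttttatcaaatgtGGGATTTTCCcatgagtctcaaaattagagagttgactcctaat
Ccl20: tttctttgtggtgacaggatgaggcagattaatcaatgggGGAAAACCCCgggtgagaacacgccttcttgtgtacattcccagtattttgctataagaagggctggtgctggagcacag
Ccl9: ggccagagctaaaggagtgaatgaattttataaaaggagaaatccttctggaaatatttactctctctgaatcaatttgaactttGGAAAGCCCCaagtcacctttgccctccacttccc
Nfkbie: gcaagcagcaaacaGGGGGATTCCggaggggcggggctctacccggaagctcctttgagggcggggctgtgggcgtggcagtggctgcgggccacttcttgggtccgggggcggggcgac
Cxcl15: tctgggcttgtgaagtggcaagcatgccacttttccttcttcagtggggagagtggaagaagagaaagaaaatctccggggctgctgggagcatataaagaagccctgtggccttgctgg
Il6ra: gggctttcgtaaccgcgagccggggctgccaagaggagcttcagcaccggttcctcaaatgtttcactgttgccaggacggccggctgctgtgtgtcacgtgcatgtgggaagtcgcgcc
In Cxcl1 the longer run of capitals holds a pair of overlapping matches, one on each strand, so that this promoter has 3 in all. In Nfkbia, the inhibitor that NF-kappaB itself switches on, the match lies closest to the start of the 6.

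No member passed the test between mrhl siRNA and scrambled siRNA. With limma, and p-values adjusted by Benjamini-Hochberg for the 33778 probe sets tested, the smallest adjusted p was 0.965, for the members as for the whole array, and the share of genes called was 0%. Arrays of equal replicate number were treated as pairs, which the sample titles do not state. With the pair as a block in limma, the smallest adjusted p was 0.487 among the members and 0.213 over all probe sets. What follows describes values, none of which passed the adjusted test. Of the 34 tested members, 22 had a lower mean after mrhl siRNA and 12 a higher one, a lower share of 64.7%, against 57.9% of all genes. With all tested probe sets of a gene averaged, the count was 18 of 34, or 52.9%, against 56.6% of all genes averaged likewise. The median difference was -0.17 over the members and -0.04 over all 14885 genes tested. It was -0.081 over the members without scrambled siRNA replicate 1.

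The members with an unadjusted p under 0.05 were Cxcl15, Ccl2 and Cd14, with lower values after mrhl siRNA, and Il6ra, with higher ones. These 4 are 11.8% of the 34, where 2.84% of all genes had such a p in either direction and 1.98% were lower with it. The count moved with single arrays. Without scrambled siRNA replicate 1 it was 2 of 34 (5.88%), against 5.20% of all genes. Without scrambled siRNA replicate 2 it was 3 (8.82%, against 2.43%), and without replicate 3 it was 2 (5.88%, against 1.93%). Without mrhl siRNA replicate 1 it was 5 (14.7%, against 2.19%). Without mrhl siRNA replicate 2 it was 4 (11.8%, against 1.67%), and without replicate 3 it was 3 (8.82%, against 6.45%). With the block, 9 members had an unadjusted p under 0.05 by limma. Of these, 8 were lower (Ccl2, Ccl7, Ccl20, Cxcl15, Il1a, Cd14, Birc3 and Ptgs2) and 1 was higher (Il6ra). These 9 are 26.5% of the members, against 9.03% of all genes in either direction, 5.89% lower and 3.14% higher. Each gene is counted by its brightest probe set, and the other probe set of Birc3 was higher in all 3 pairs. In 5 members the 3 arrays of a group did not overlap with those of the other, 4 lower (Ccl2, Cxcl15, Cd14 and Nfkbie) and 1 higher (Il6ra), or 14.7%, against 8.44% of all genes, of which 6.13% lower and 2.30% higher. Values were lower after mrhl siRNA in all 3 pairs in 18 members (52.9%, against 26.1% of all genes) and higher in all 3 pairs in 4 members, Cxcl5, Il6ra, Tnfrsf1b and Rela (11.8%, against 14.5%). The members were chosen with earlier results of these data known, so their shares beside those of all genes describe values and measure no enrichment.

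**Figure D1:**
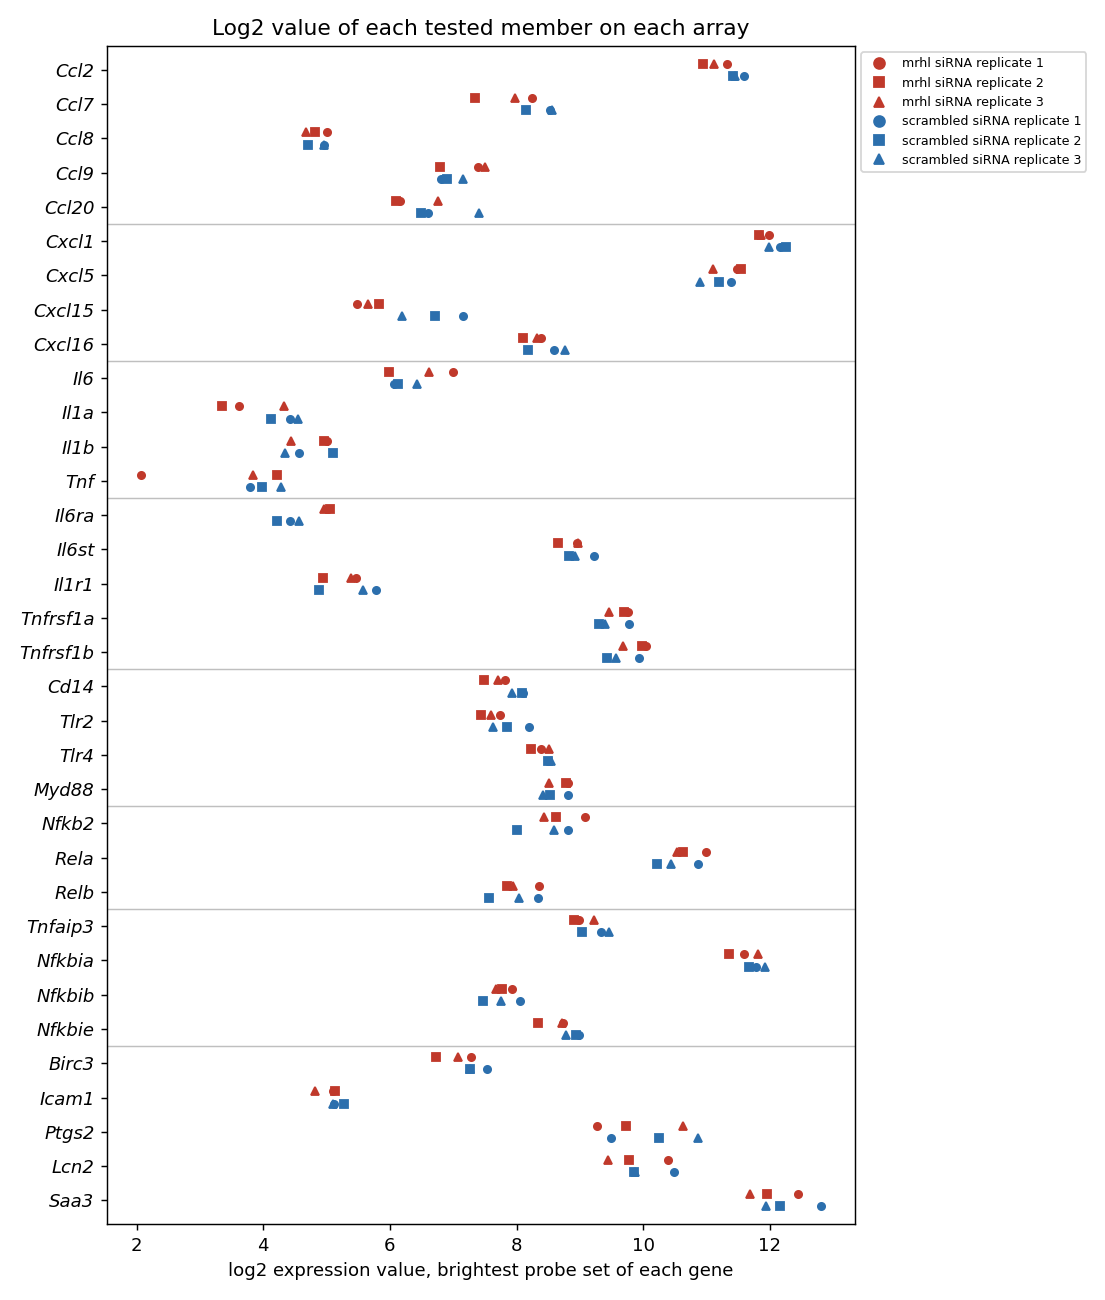
Log2 value (horizontal axis) of the brightest probe set of each of the 34 tested members (vertical axis, by role) on each of the 6 arrays, with marker shape giving the replicate number and colour the siRNA. In most members the points of both groups overlap, while in Ccl2, Cxcl15, Il6ra, Cd14 and Nfkbie they do not.

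The CC chemokines recruit monocytes, lymphocytes and other leukocytes. Ccl2, the main attractant of monocytes, stood at 11.32, 10.94 and 11.11 after mrhl siRNA, against 11.60, 11.42 and 11.45 after scrambled siRNA. Every culture with mrhl siRNA was below every culture with scrambled siRNA, with means of 11.12 ± 0.19 after mrhl siRNA and 11.49 ± 0.09 after scrambled siRNA (SD, n = 3 each). The difference was -0.36 (SE 0.155, 95% interval -0.73 to -0.0018), a value 1.29-fold lower, with an adjusted p of 0.965 by limma and 0.487 with the block.

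Ccl7 lies next to Ccl2 in the genome and attracts the same cells. Its values were 8.24, 7.34 and 7.97 after mrhl siRNA, against 8.53, 8.15 and 8.56 after scrambled siRNA, a difference of -0.56 (SE 0.252). The groups overlapped, though within each pair the mrhl siRNA culture was lower, by differences of -0.29, -0.81 and -0.59. Without mrhl siRNA replicate 2 the difference of Ccl7 was -0.31. Ccl20, which attracts cells bearing Ccr6, was at 6.16, 6.10 and 6.76 after mrhl siRNA, against 6.60, 6.48 and 7.41 after scrambled siRNA. Here the spread between pairs was larger than the difference of -0.49 (SE 0.294), as both cultures of replicate 3 were brighter than the others. In the pairs the difference was -0.43, -0.38 and -0.66, and without scrambled siRNA replicate 3 the group difference of Ccl20 was -0.20. Ccl9, a chemokine of the mouse that attracts dendritic cells and osteoclast precursors, averaged 7.23 ± 0.38 after mrhl siRNA and 6.95 ± 0.18 after scrambled siRNA, with overlapping groups and a difference of 0.28 (SE 0.219), or 0.16 in its other probe set. Ccl8, another attractant of monocytes, differed by -0.04. Of the 5 CC chemokines, 4 thus had a lower mean after mrhl siRNA, with a median difference of -0.36, and 0 passed the adjusted test. Beside these values, the leukocyte markers' summed signal overlapped between the groups as given above, and the part of such cells in the chemokine values was not tested.

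Among the CXC chemokines, most of which attract neutrophils, Cxcl15 had the largest difference of the 34 tested members. Cxcl15, known in the mouse as lungkine and best described in lung epithelium, stood at 5.49, 5.83 and 5.66 after mrhl siRNA, against 7.15, 6.71 and 6.19 after scrambled siRNA. All cultures with mrhl siRNA lay below all with scrambled siRNA, and the scrambled cultures were the more spread, with means of 5.66 ± 0.17 after mrhl siRNA and 6.68 ± 0.48 after scrambled siRNA (SD, n = 3 each). The difference was -1.02 (SE 0.251, 95% interval -1.61 to -0.43), 2.03-fold lower, with an adjusted p of 0.965 by limma and 0.487 with the block. In the pairs it was -1.66, -0.87 and -0.53. A dimmer probe set of Cxcl15 read 4.59, 4.87 and 4.12 after mrhl siRNA, against 5.37, 5.13 and 5.0 after scrambled siRNA. It too had groups that did not overlap, with a difference of -0.64 (SE 0.22, 95% interval -1.15 to -0.12).

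Cxcl1, the neutrophil attractant that follows Cxcl15 along the chromosome, was at 11.99, 11.83 and 11.85 after mrhl siRNA, against 12.17, 12.25 and 11.98 after scrambled siRNA. The means were 11.89 ± 0.09 after mrhl siRNA and 12.13 ± 0.14 after scrambled siRNA, a difference of -0.24 (SE 0.144, 95% interval -0.58 to 0.10) with groups that touched only through the array of mrhl siRNA replicate 1. Its other probe sets differed by -0.31 and -0.08. The suffix of the brightest probe set, shared by those of Cxcl16, Nfkbie and Nfkbib, marks probes that can match more than 1 transcript. Signal from near relatives is thus not separated. Cxcl2, next in line and close to Cxcl1 in sequence, was dim throughout (2.32, 0.27 and 2.87 after mrhl siRNA, against -0.54, 2.79 and 3.54 after scrambled siRNA) and has no usable difference. Cxcl5, a neutrophil attractant of epithelial cells, lay the other way, at 11.48, 11.54 and 11.10 after mrhl siRNA, against 11.39, 11.20 and 10.89 after scrambled siRNA. It was higher in each pair, yet the difference of 0.22 (SE 0.195) was smaller than the SD of either group. Cxcl16, a chemokine anchored in the membrane, averaged 8.27 after mrhl siRNA and 8.51 after scrambled siRNA, a difference of -0.24. Its other probe set differed by -0.30, and there the groups did not overlap. Of the 4 tested CXC chemokines, 3 had a lower mean (median difference -0.24).

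**Figure D2:**
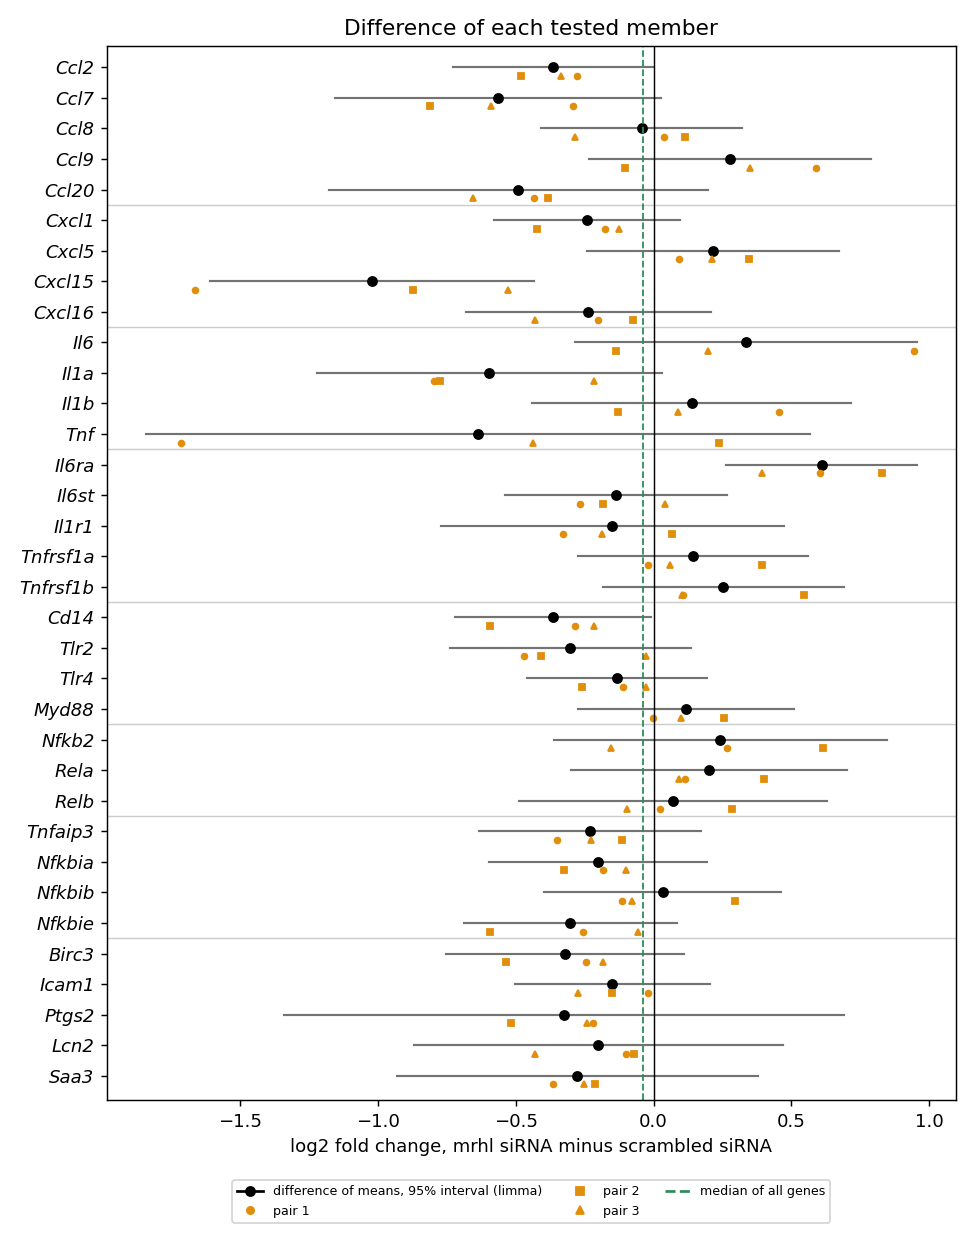
Difference of each tested member between mrhl siRNA and scrambled siRNA (black point, with the 95% interval of the limma fit) and in each of the 3 pairs (orange), on the log2 scale, with a dashed line at the median of all genes. The intervals of Ccl2, Cxcl15 and Cd14 lie below 0, that of Il6ra lies above it, and those of the other 30 include 0.

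The cytokines of the module were dim or varied between cultures. Il6, an inducer of the acute phase response, was at 7.0, 5.99 and 6.62 after mrhl siRNA, against 6.06, 6.13 and 6.43 after scrambled siRNA. Its difference of 0.33 (SE 0.264, 95% interval -0.28 to 0.95) was smaller than the SD of 0.51 among the mrhl siRNA cultures, and the pairs differed in sign, with replicate 1 the highest of the mrhl siRNA cultures. Il1a, an alarm cytokine, stood at 3.62, 3.35 and 4.34 after mrhl siRNA, against 4.42, 4.13 and 4.55 after scrambled siRNA, near the brightness limit, with a difference of -0.60 (SE 0.267). Il1b, its neighbour in the genome, differed by 0.14 (SE 0.247). Tnf, the founding member of its family, was at 2.07, 4.22 and 3.85 after mrhl siRNA, against 3.79, 3.98 and 4.28 after scrambled siRNA. Its difference of -0.64 (SE 0.514) rested on mrhl siRNA replicate 1 and was 0.015 without it. Of the 4 cytokines, 2 had a lower mean (median difference -0.23).

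The receptors gave the only member whose brightest probe set was higher after mrhl siRNA without overlap. Il6ra, the binding chain of the IL-6 receptor, stood at 5.02, 5.05 and 4.96 after mrhl siRNA, against 4.42, 4.22 and 4.57 after scrambled siRNA. The 3 cultures with mrhl siRNA lay close together and above all the others, with means of 5.01 ± 0.04 after mrhl siRNA and 4.40 ± 0.18 after scrambled siRNA (SD, n = 3 each). The difference was 0.61 (SE 0.148, 95% interval 0.26 to 0.95), 1.53-fold higher, with an adjusted p of 0.965 by limma and 0.487 with the block. A dimmer probe set of the same gene read 4.41, 4.83 and 4.64 after mrhl siRNA, against 4.32, 4.65 and 4.63 after scrambled siRNA, and its difference was 0.09 (SE 0.174). The interval of this second probe set, -0.32 to 0.50, does not hold the value of the first.

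Il6st, the signalling chain shared by receptors of the IL-6 family, was read by 4 probe sets whose differences were -0.14, 0.27, -0.03 and -0.08. The second of these read 8.35, 8.22 and 8.47 after mrhl siRNA, against 8.17, 8.12 and 7.96 after scrambled siRNA, without overlap, while the other 3 overlapped. The receptor for IL-1, Il1r1, differed by -0.15 (SE 0.265). The TNF receptors Tnfrsf1a and Tnfrsf1b differed by 0.14 (SE 0.178) and 0.25 (SE 0.187), and Tnfrsf1b was higher in each pair. A dimmer probe set of Tnfrsf1b differed by 0.46, with overlapping groups. Of the 5 tested receptors, 3 had a higher mean after mrhl siRNA (median difference 0.14).

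**Figure D3:**
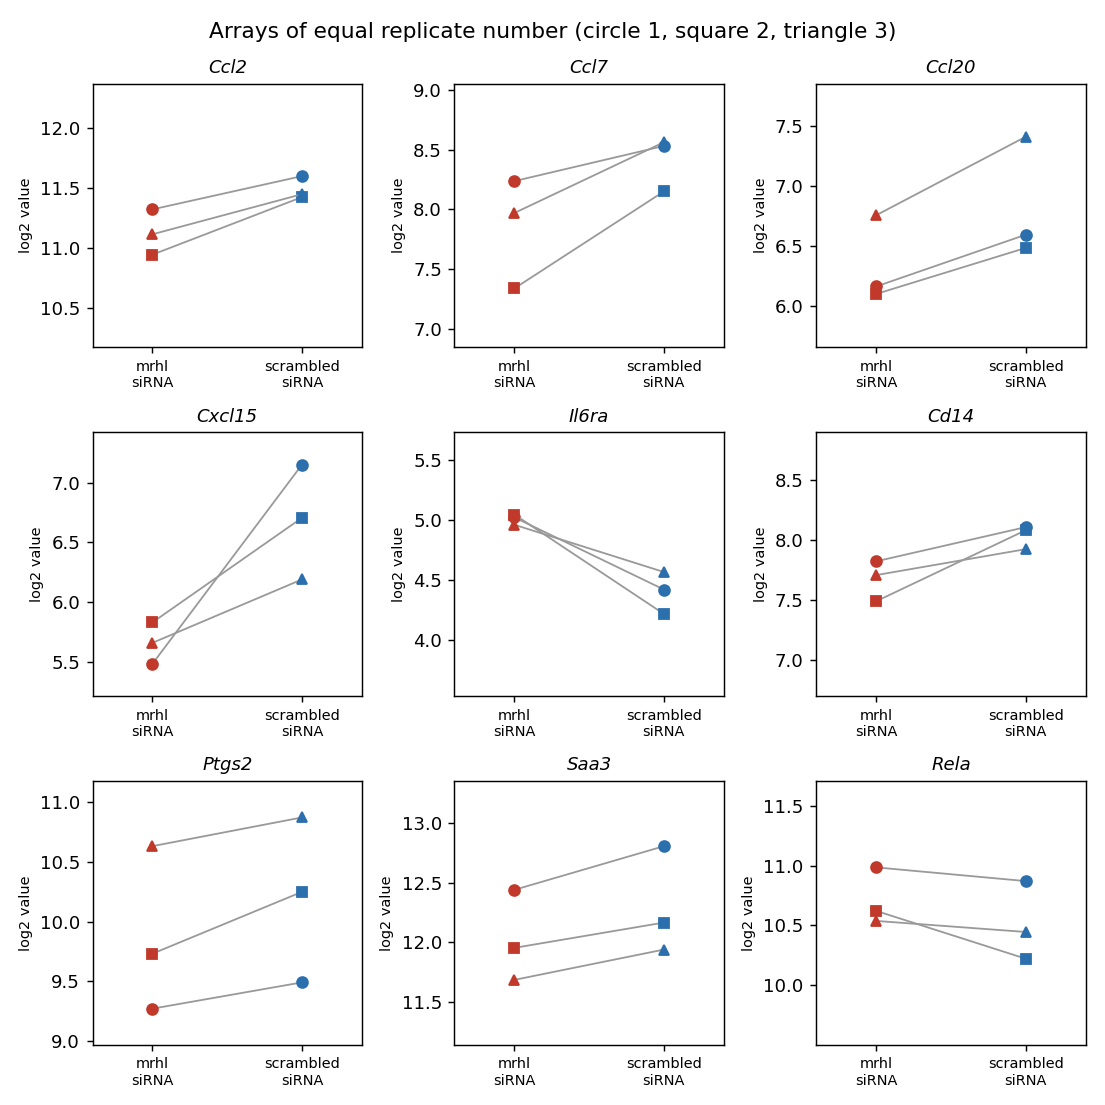
Log2 values of selected members in each of the 3 pairs of equal replicate number, mrhl siRNA left and scrambled siRNA right, with a line joining each pair. In Ccl2, Cxcl15 and Cd14 each line has its lower end at mrhl siRNA, in Il6ra its higher end, and in Ptgs2 and Saa3 the pairs stand further apart than the groups.

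Among the sensors of microbial products, Cd14, which hands lipopolysaccharide to Tlr4, was at 7.82, 7.49 and 7.71 after mrhl siRNA, against 8.11, 8.08 and 7.92 after scrambled siRNA. The groups did not overlap, with means of 7.67 ± 0.17 after mrhl siRNA and 8.04 ± 0.10 after scrambled siRNA (SD, n = 3 each), a difference of -0.37 (SE 0.151, 95% interval -0.72 to -0.01) and an adjusted p of 0.965 by limma. Cd14 is also a marker of monocytes and macrophages. Tlr2, a receptor for bacterial lipoproteins, averaged 7.59 ± 0.15 after mrhl siRNA and 7.89 ± 0.29 after scrambled siRNA, a difference of -0.30 (SE 0.187), and was lower in each pair. Tlr4 differed by -0.13 in its brightest probe set and by -0.16, 0.13 and 0.32 in the other 3, and Myd88, the adaptor shared by most Toll-like receptors, by 0.12. Of the 4 tested genes of this role, 3 had a lower mean (median difference -0.22). Traf1, an adaptor of TNF receptors, was under the brightness limit in both of its probe sets.

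Among the NF-kappaB subunits, Rela, which carries a domain that activates transcription, was at 10.98, 10.62 and 10.54 after mrhl siRNA, against 10.87, 10.22 and 10.45 after scrambled siRNA, with means of 10.71 ± 0.24 after mrhl siRNA and 10.51 ± 0.33. after scrambled siRNA The difference of 0.20 (SE 0.214, 95% interval -0.30 to 0.70) was within the spread of either group, although the value was higher in each pair. Nfkb2, the precursor of the p52 subunit, differed by 0.24 and 0.25 in its 2 probe sets, and Relb, its usual partner, by 0.07. All 3 tested subunits had a higher mean, with a median of 0.20.

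Of the 4 inhibitors of NF-kappaB, 3 had a lower mean after mrhl siRNA (median difference -0.22), and 0 passed the adjusted test. Nfkbia, which encodes IkB-alpha and is itself a target of NF-kappaB, read 11.59, 11.35 and 11.82 after mrhl siRNA, against 11.78, 11.68 and 11.92 after scrambled siRNA. Its difference of -0.20 (SE 0.168, 95% interval -0.60 to 0.19) came with overlapping groups, and 4 further probe sets of the gene gave -0.08, 0.09, 0.11 and 0.18. Tnfaip3, which encodes the enzyme A20 that shuts the pathway off, read 8.98, 8.91 and 9.23 after mrhl siRNA, against 9.33, 9.03 and 9.45 after scrambled siRNA. It was lower in each pair, by a difference of -0.23 (SE 0.172) and, in a second probe set, of -0.30. Nfkbie, which encodes IkB-epsilon, read 8.74, 8.34 and 8.72 after mrhl siRNA, against 8.99, 8.94 and 8.77 after scrambled siRNA, without overlap, a difference of -0.30 (SE 0.164). Its other probe set differed by -0.03 and had overlapping groups. Nfkbib, which encodes IkB-beta, differed by 0.03, and by 0.39 in a dimmer probe set whose SD after mrhl siRNA was 1.07.

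The remaining response genes had lower means after mrhl siRNA in all 5 cases and in all 3 pairs of each, with a median difference of -0.28, while their groups overlapped. Saa3, an acute phase protein, was at 12.44, 11.95 and 11.69 after mrhl siRNA, against 12.80, 12.17 and 11.94 after scrambled siRNA, a difference of -0.28 (SE 0.28) that was -0.026 without scrambled siRNA replicate 1, -0.11 without mrhl siRNA replicate 3 and -0.48 without mrhl siRNA replicate 1. Ptgs2, the inducible cyclooxygenase, was at 9.27, 9.73 and 10.63 after mrhl siRNA, against 9.49, 10.25 and 10.87 after scrambled siRNA, a difference of -0.33 (SE 0.434). For Ptgs2 the pair means ranged over 1.37, more than in any other tested member, against a difference of -0.33 between the siRNAs. Birc3, an inhibitor of cell death that also acts in TNF receptor signalling, differed by -0.32 in its brightest probe set and by 0.40 in the other, so its probe sets disagree. With the block, the unadjusted p by limma was 0.049 in the brightest and 0.013 in the other. Lcn2, an iron-binding protein of the acute phase, and Icam1, an adhesion molecule for leukocytes, differed by -0.20 and -0.15.

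Over the 34 members, the range of the pair means was larger than the difference between the groups in 28, or 82.4%, against 83.8% of all genes. The median range of pair means was 0.398 for members and 0.338 for all genes. Cxcl15, Il6ra, Cd14, Ccl2, Nfkbie and Cxcl1 were the 6 members in which the groups differed by more than the pair means did.

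**Figure D4:**
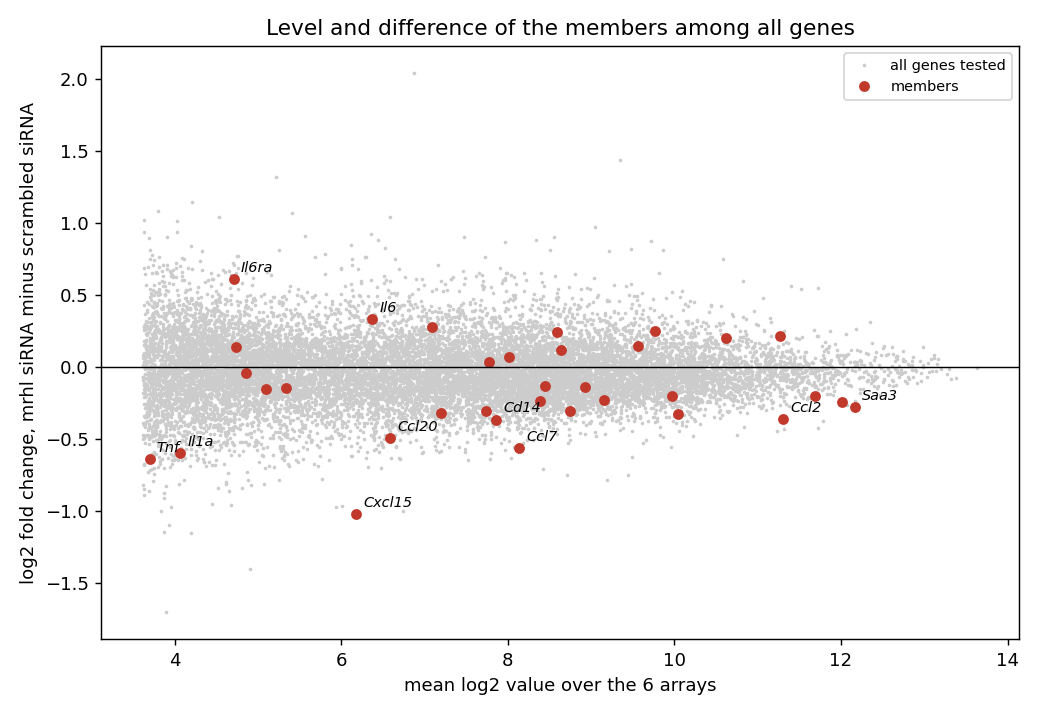
Mean log2 value over the 6 arrays (horizontal axis) and log2 fold change, mrhl siRNA minus scrambled siRNA (vertical axis), of the members in colour among all tested genes in grey. Cxcl15 lies at moderate brightness. Il6ra is dimmer, under the median level of 5.23 over all probe sets. The members with the brightest probe sets, from Rela to Saa3, lie within 0.40 of 0.

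More than 1 tested probe set was available for 15 members. In 11 of these the differences had the same sign in all probe sets, and in 4 (Il6st, Tlr4, Nfkbia and Birc3) they did not.

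**Figure D5:**
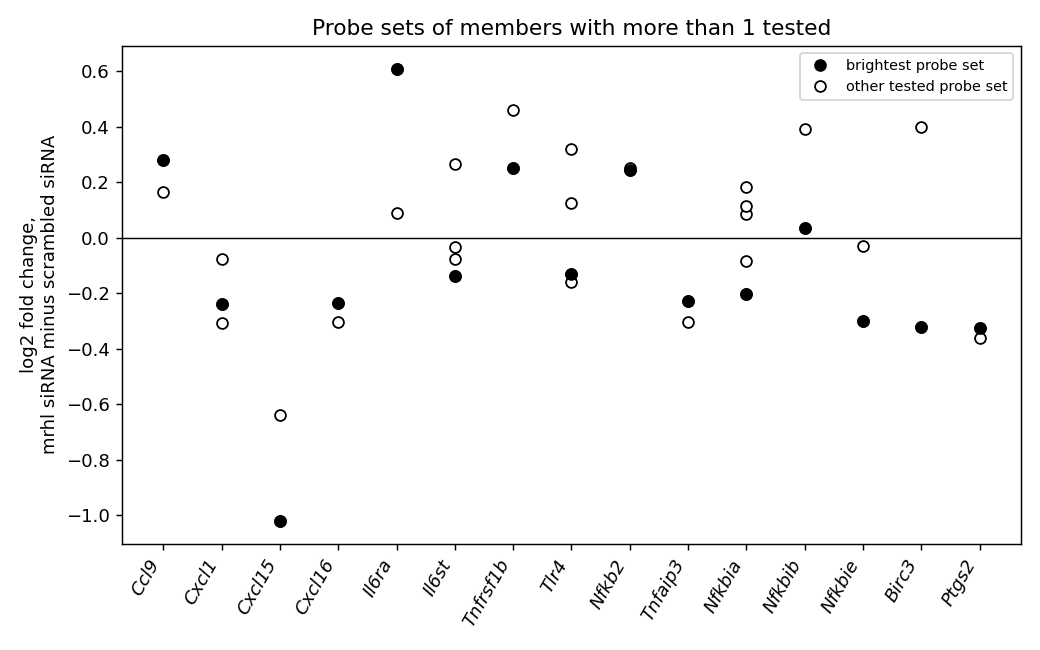
Log2 fold change, mrhl siRNA minus scrambled siRNA, of every tested probe set of the 15 members with more than 1, the brightest filled and the others open. Both probe sets of Cxcl15 lie below 0, those of Il6ra both lie above 0 but far apart, and those of Il6st, Tlr4, Nfkbia and Birc3 fall on both sides.

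The other genes of the pathway were read from 7 further lists, also chosen with earlier results of these data known. They held 153 genes, of which 144 had a probe set and 118 were tested. None passed the test (limma, adjusted p 0.965 at the lowest), and 64 had a higher and 54 a lower mean after mrhl siRNA, with a median difference of 0.0081. An unadjusted p under 0.05 was found for 6 of the 118 (5.08%, against 2.84% of all genes), all 6 lower after mrhl siRNA. With the block it was found for 14 (11.9%, against 9.03%), 10 lower and 4 higher. The kinases and adaptors that carry the signal split evenly, with 14 of the 29 tested higher. Tab3, an adaptor of the kinase Map3k7, averaged 7.70 after mrhl siRNA and 8.20 after scrambled siRNA, a difference of -0.50, and Ticam1, the adaptor of Tlr3, had a difference of 0.36. Of 6 further Rel and IkB family genes, 2 were higher, with Nfkbil1, a relative of the IkB proteins, at 0.31 and Nkrf, a repressor of NF-kappaB targets, at -0.26.

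Of the other chemokines, 14 of 21 were tested and 8 were higher. Cxcl10, an attractant of T cells, averaged 9.98 after mrhl siRNA and 10.46 after scrambled siRNA, a difference of -0.48, while Cxcl12 differed by 0.33. Of the chemokine receptors, 13 of 22 were tested and 9 were higher. Ccr2, the receptor for Ccl2 and Ccl7, averaged 4.26 after mrhl siRNA and 4.93 after scrambled siRNA, a difference of -0.68, and Cxcr6, the receptor for Cxcl16, differed by 0.44.

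Of 17 further tested cytokines, 8 were higher. Tslp, an epithelial cytokine, averaged 4.02 after mrhl siRNA and 4.50 after scrambled siRNA, a difference of -0.48, and Il15 differed by 0.51. Of 17 further tested cytokine and Toll-like receptors, 7 were higher, with Tlr5 at 0.61 and Cd40, a receptor of the TNF family, at -0.33. Of 22 further tested response genes, 16 were higher, with a median of 0.11. Tap1, a peptide transporter, differed by 0.24, and Mmp13, a collagenase, averaged 7.68 after mrhl siRNA and 8.25 after scrambled siRNA, a difference of -0.57.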

How the data were processed

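The deposited values are log2 expression values of 1-colour arrays. Per the submitters' processing notes they came from GCOS and PLIER; no versions and no settings for background or normalization are known here, and background treatment affects the dimmest probe sets most. Groups and replicate numbers are those of the sample titles, where replicates are called biological. Members and lists were chosen with earlier results of these data known.

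Of 45101 rows, 64 were controls and were removed. Names came from the platform annotation, using the 34945 probe sets with exactly 1 symbol. Probe sets whose mean was under the 25th percentile (3.62) were dropped, and 33778 remained. The brightest tested probe set stood for its gene. Testing used limma 3.58.1 in R 4.3.3 (lmFit, eBayes), with p-values adjusted by Benjamini-Hochberg, a threshold of 0.05 and 95% intervals. The code was tested on simulated data. With 3 arrays a group, the number of arrays limits the precision, and the median SE of a member's difference was 0.188.

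To see whether replicate numbers pair the arrays, deviations from the group means were correlated. Equal numbers gave 0.534, 0.201 and 0.567, all above 0.1, and unequal ones -0.518 to 0.0684. As deviations sum to 0 within a group, positive values at equal numbers pull the unequal ones down, so the latter add no separate support. Equal numbers were treated as pairs on the 3 equal-number values, in keeping with the separate experiments of the design text. Of each further pathway list, at most 2 genes in each direction are named, those with the smallest p. Members are given array by array where the unadjusted p was under 0.05 or the groups did not overlap, for the 6 brightest, and for Nfkbia, Rela, Tnfaip3 and Il6. The values of Ccl7, Ccl20, Cxcl2, Il1a, Tnf, Ptgs2 and of further probe sets were added after they were seen. Alternatives changed the normalization, the floor, the filter, the pairing, the variance model, array weights, the arrays used and the probe set of a gene. Promoters are from RefSeq (GRCm38.p6). Figures were drawn with matplotlib 3.10.9.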

Additional observations from a re-analysis of the deposited data

How the results depend on the processing

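No member passed the adjusted test under any of the alternatives that give a test: quantile normalization, equal array medians, a floor for dim values, no brightness filter or one at the median, the replicate block, trended and robust variances, array weights, and leaving out each array. The replicate block and the trended, robust variance together, an alternative chosen after seeing the data, called 2 probe sets, with a smallest adjusted p of 0.000758, none of them a member's (0 called, smallest 0.195). The number of members with an unadjusted p under 0.05 by limma ran from 2 to 18 over the alternatives. It was 9 with the replicate block and 18 (52.9%) with the added combination, where the share of all genes was 14.1%. When 1 array was left out it ran from 2 to 5, and the share of all genes from 1.67% to 6.45%.

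The median difference of the members stayed below 0, at -0.15 with quantile normalization, -0.15 with the floor, -0.15 with array weights, -0.20 with the filter at the median and -0.097 with all tested probe sets of a gene averaged. It ran from -0.24 to -0.081 when 1 array was left out, at the lowest without scrambled siRNA replicate 2 and the highest without scrambled siRNA replicate 1. Averaging the probe sets of a gene turned Il6st to 0.0043, Tlr4 to 0.038, Nfkbia to 0.019 and Birc3 to 0.038, since their probe sets differ in sign. Leaving out 1 array turned the sign of Ccl8 (-0.13 to 0.034), Il1b (-0.021 to 0.35, and -0.021 without both arrays of replicate number 1), Tnf (-1.06 to 0.015), Il1r1 (-0.42 to 0.037), Relb (-0.14 to 0.25), Nfkbib (-0.11 to 0.18), Ptgs2 (-0.70 to 0.0080) and Lcn2 (-0.46 to 0.015), and the cause was not tested. The number of members below 0 ran from 18 to 24 over the alternatives. In 29 of the 34 members, leaving out 1 array moved the difference by over 1.5 times or turned it, among them Ccl7 (-0.76 to -0.31), Ccl20 (-0.70 to -0.20) and Saa3 (-0.48 to -0.026); Ccl2, Cxcl1, Cxcl15, Il6ra and Cd14 were the 5 others. Of 572 values of members under alternatives, 555 kept their sign and 17 did not. Cxcl15, Ccl2, Cd14 and Il6ra kept theirs wherever they were read, and the filter at the median level removed Il6ra.

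With 3 arrays a group, the median SE over all probe sets tested was 0.192, and 0.132 with the replicate block. Il1a and Tnf lie near the brightness limit, so their values rest on little signal. The brightest probe set of Il6ra averaged 5.01 after mrhl siRNA and 4.40 after scrambled siRNA, under the median level of 5.23 over all probe sets.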
